A study of Mus musculus with 15 samples.

Results

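The promoters of protein-coding genes in islets of mice on a high-fat diet (HFD) were sorted by the 2 histone marks they carried, acetylation (H3K27Ac) or trimethylation (H3K27Me3) of lysine 27 of histone H3. A promoter was the window of 1000 bp either side of the annotated 5′ end of a gene (GENCODE mouse release 21, GRCm38), and it held a mark when at least 1 bp of it lay in a peak of that mark. The 20807 protein-coding genes on chromosomes 1 to 19 fell into 4 classes, and 12048 of their promoters held at least 1 mark in HFD islets. The marks were mapped by chromatin immunoprecipitation and sequencing (ChIP-seq) of pooled islets, about 600 per experiment, from male mice of the inbred strain CBA. The HFD groups hold 4 of the 15 samples of the series, 2 with H3K27Ac and 2 with H3K27Me3. The other diets were regular chow (RD) and the same high-fat food with 0.8 mg per g of O304 (HFD-O304), an activator of the energy sensor AMPK, again with 2 samples per mark. Diets began at 10 weeks of age and islets were isolated at about 20 weeks. The 2 samples of each mark and diet were merged by the authors before peaks were called. Each value below therefore comes from 1 list, the spread between replicates could not be measured, and no difference was tested. Islets are a mixture of cell types, so a promoter with both marks may carry them in different cells or on different alleles, and these cannot be told apart.

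Acetylation and trimethylation cannot sit on the same lysine at the same time. H3K27Ac is placed by the acetyltransferases p300 and CBP and marks active promoters and enhancers. H3K27Me3 is placed by Polycomb repressive complex 2, which is drawn to unmethylated CpG-rich DNA of genes that are silent in a cell type, many of them regulators of development. In beta cells Polycomb keeps genes of other lineages and of progenitors silent.

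A pair of genes from each class is given as an example and need not be typical of it. The whole windows held a median of 93 CpG at H3K27Ac only promoters and 87 at H3K27Me3 only. The medians were 98 at promoters with both marks and 20 at those with neither. The lines give the 250 bases before the annotated start, 5′ to 3′ on the strand of the gene, from the RefSeq copy of the GRCm38 reference, which is C57BL/6J and not CBA sequence. Capitals mark CpG dinucleotides. Hspa5 (chr2:34771720-34771969, plus strand), which encodes the chaperone BiP, held H3K27Ac over all 250 bases and has 19 CpG. Ins1 (chr19:52264047-52264296, plus strand), an insulin gene, has 0 CpG here, and its H3K27Ac peak began downstream of the start.
Hspa5: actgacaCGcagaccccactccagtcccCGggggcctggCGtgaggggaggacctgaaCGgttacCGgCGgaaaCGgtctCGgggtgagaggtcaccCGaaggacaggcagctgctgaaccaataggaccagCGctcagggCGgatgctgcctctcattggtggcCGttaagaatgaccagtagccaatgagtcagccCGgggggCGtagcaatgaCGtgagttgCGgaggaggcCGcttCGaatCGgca
Ins1: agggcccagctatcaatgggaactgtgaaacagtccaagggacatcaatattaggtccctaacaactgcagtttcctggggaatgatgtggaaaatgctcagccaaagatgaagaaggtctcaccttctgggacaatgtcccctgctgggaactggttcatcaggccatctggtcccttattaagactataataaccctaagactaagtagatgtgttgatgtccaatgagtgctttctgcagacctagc
Hoxa9 (chr6:52231090-52231339, minus strand) and Pax3 (chr1:78197135-78197384, minus strand), regulators of body axis and of neural crest and muscle, carried H3K27Me3 without H3K27Ac. All 250 bases of each lay in an H3K27Me3 peak, with 3 and 10 CpG.
Hoxa9: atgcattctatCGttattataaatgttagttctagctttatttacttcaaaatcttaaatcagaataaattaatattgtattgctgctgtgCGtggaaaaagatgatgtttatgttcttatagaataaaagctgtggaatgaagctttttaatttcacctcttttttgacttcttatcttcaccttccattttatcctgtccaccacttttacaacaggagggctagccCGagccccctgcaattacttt
Pax3: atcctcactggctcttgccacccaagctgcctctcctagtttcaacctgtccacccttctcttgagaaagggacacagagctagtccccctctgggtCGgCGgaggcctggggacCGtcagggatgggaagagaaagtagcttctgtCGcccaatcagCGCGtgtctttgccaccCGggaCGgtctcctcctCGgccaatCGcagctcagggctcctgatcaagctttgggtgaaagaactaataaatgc
Aldh1a3 (chr7:66427518-66427767, minus strand), a retinaldehyde dehydrogenase used as a marker of stressed beta cells, had both marks over all 250 bases and 22 CpG. Rest (chr5:77265241-77265490, plus strand), the repressor of neuronal genes, has 44 CpG, and its peaks of both marks began downstream of the start.
Aldh1a3: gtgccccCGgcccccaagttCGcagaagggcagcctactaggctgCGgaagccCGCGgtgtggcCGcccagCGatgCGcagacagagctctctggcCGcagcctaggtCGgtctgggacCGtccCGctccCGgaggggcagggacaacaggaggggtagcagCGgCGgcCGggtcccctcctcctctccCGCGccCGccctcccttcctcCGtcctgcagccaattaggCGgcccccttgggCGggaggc
Rest: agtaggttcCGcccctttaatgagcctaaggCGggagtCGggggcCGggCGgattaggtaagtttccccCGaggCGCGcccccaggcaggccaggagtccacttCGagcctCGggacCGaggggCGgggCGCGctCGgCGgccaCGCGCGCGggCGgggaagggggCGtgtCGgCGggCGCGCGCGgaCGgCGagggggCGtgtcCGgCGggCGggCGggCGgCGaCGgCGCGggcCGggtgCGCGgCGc
Gcg (chr2:62483651-62483900, minus strand), which encodes glucagon, and Alb (chr5:90460647-90460896, plus strand), which encodes albumin of hepatocytes, had neither mark. They have 6 and 3 CpG.
Gcg: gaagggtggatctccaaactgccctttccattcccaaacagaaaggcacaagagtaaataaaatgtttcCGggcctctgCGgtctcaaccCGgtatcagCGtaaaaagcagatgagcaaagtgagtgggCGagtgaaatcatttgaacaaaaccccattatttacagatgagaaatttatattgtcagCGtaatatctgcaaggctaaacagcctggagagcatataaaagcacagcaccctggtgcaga
Alb: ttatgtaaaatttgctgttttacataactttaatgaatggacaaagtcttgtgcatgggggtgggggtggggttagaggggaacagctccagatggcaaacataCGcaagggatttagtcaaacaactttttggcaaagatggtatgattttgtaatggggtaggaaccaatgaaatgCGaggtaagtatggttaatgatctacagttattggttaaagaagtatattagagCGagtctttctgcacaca

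Both HFD lists hold broad peaks with a mean pileup, the number of fragments stacked over a base. H3K27Ac had 21021 peaks on chromosomes 1 to 19, with a median width of 862 bp, and 9510 of them (45.2%) lay at a promoter. H3K27Me3 had 14254 peaks with a median width of 621 bp, and 1797 (12.6%) lay at a promoter. Bases masked as repeats made up at least 50% of 28.7% of the H3K27Ac peaks away from promoters and 69.1% of those of H3K27Me3. At promoters the shares were 0.221% and 1.73%. The lists rested on 95218072 and 54166902 kept fragments, so pileup was compared within a mark only.

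H3K27Ac without H3K27Me3 was found at 10202 promoters, 49.0% of all. H3K27Me3 without H3K27Ac was found at 1226 (5.89%), both marks at 620 (2.98%) and neither at 8759 (42.1%). The 95% Wilson intervals, which cover counting error only, were 48.4% to 49.7%, 5.58% to 6.22%, 2.76% to 3.22% and 41.4% to 42.8%. H3K27Ac with or without the other mark lay at 52.0% of promoters and H3K27Me3 at 8.87%. Among promoters with H3K27Ac, 5.73% (5.31% to 6.18%) also had H3K27Me3. Among promoters without H3K27Ac the share was 12.3% (11.6% to 12.9%). Read the other way, 33.6% of the 1846 promoters with H3K27Me3 also had H3K27Ac. The counts depended on the strength asked of a peak. At a −log10 q of 5 or more, where q is the false discovery rate given by the peak caller, 393 promoters had H3K27Me3 only, 88 had both marks, 8387 had H3K27Ac only and 11939 had neither, so that the order of the 2 largest classes was turned.

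**Figure D1:**
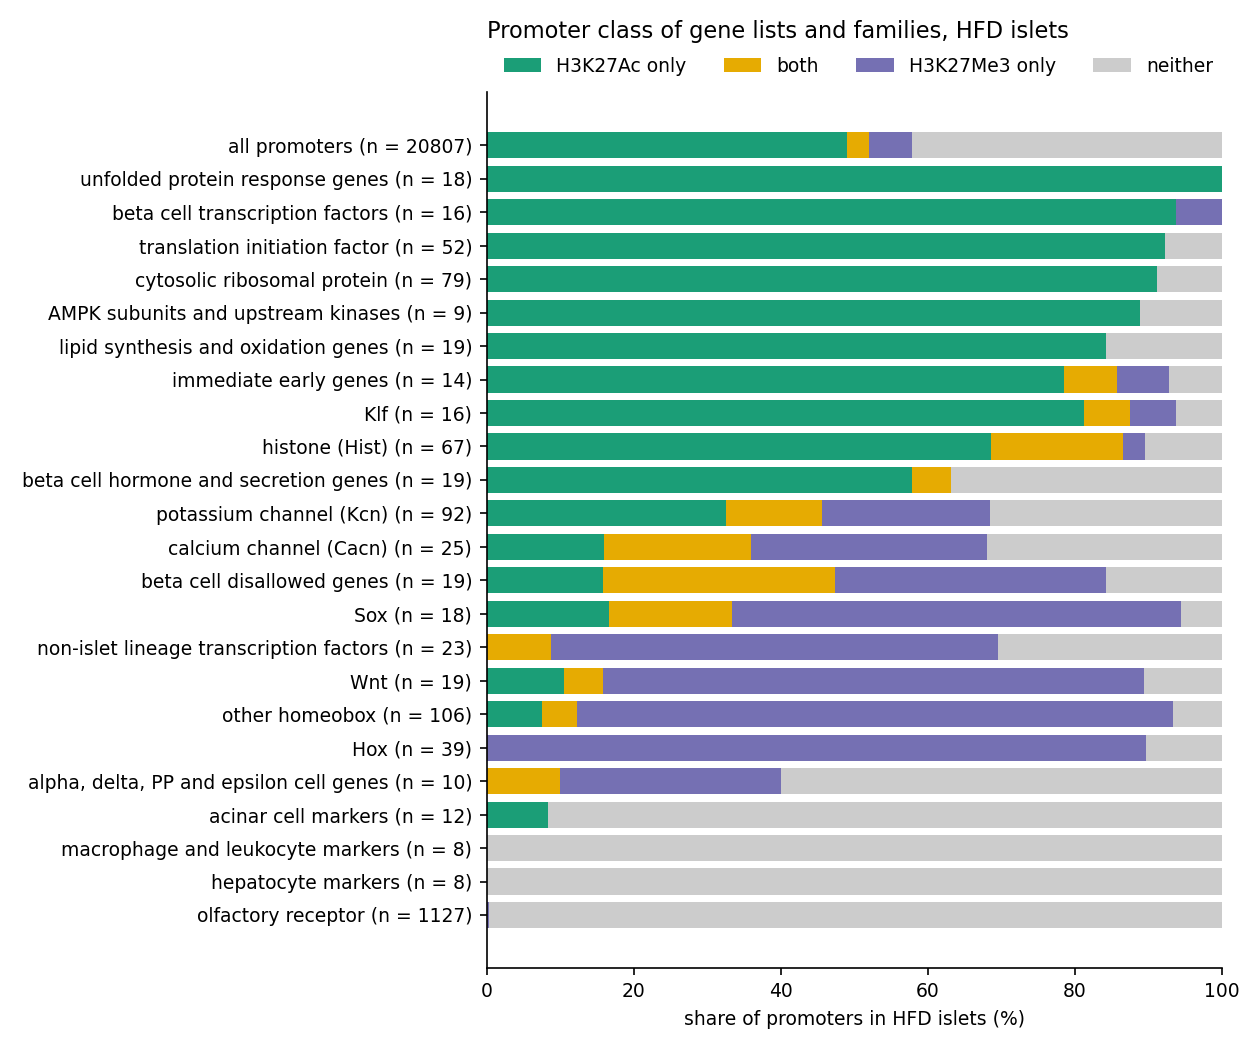
Share of promoters (x axis, percent) with H3K27Ac only, both marks, H3K27Me3 only or neither in HFD islets, for all protein-coding promoters and for gene lists and families (y axis, with the number of genes). All 18 unfolded protein response genes were H3K27Ac only, 35 of 39 Hox genes were H3K27Me3 only, and 1124 of 1127 olfactory receptor genes had neither mark.

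The islet label was checked on markers of the cells it could hold. Of 16 transcription factors of beta cells, 15 had H3K27Ac only, against 49.0% of all promoters. Their H3K27Ac peaks were broad, with a median of 2758 bp against 1091 bp over all promoters with H3K27Ac. The peak of Pdx1, the master regulator of pancreas and beta cell identity, was 4934 bp wide with a pileup of 43.0. Nkx6-1, which represses other endocrine fates, had a peak of 4369 bp with a pileup of 57.5, the highest of the list. Pax6 and Foxa2 had 4024 bp and 3484 bp. Mafa, an activator of the insulin genes, had 2758 bp and Isl1 1081 bp. Mlxipl, which encodes the glucose-responsive factor ChREBP, was the exception. It had an H3K27Me3 peak of 910 bp that ended 184 bp from its annotated start. It was H3K27Ac only when the starts of its protein-coding transcripts were used in place of that start.

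Of 19 genes of the beta cell hormones and of insulin secretion, 11 had H3K27Ac only, 1 had both marks and 7 had neither. The 57.9% with H3K27Ac only (36.3% to 76.9%) and 36.8% with neither were near the 49.0% and 42.1% of all promoters. Chga, which encodes chromogranin A of the secretory granule, had the widest H3K27Ac peak among the 11 (6447 bp, pileup 41.3). Abcc8 and Kcnj11, the subunits of the KATP channel, had 4975 bp and 3568 bp. Slc2a2, the glucose transporter GLUT2, had 4624 bp at a pileup of 34.9. Ins1 had a peak of 432 bp that began 236 bp after its start, with a pileup of 42.8. Ins2 was read as neither because its annotation begins far upstream (chromosome 7, 142678656 to 142743381, minus strand). Its nearest H3K27Ac peak lay 62576 bp downstream of that start, and with every protein-coding transcript start it was H3K27Ac only. Iapp, G6pc2, Slc30a8, Scg2, Trpm5 and Cacna1c were also neither, and their nearest H3K27Ac peaks lay 3288 bp (Scg2) to 23663 bp (Slc30a8) away. Cacna1c, like Ins2, was H3K27Ac only with every protein-coding transcript start. That setting gave 13 of the 19 genes H3K27Ac only and 5 neither. Genes that define the other islet cells had H3K27Ac only at none of 10. The hormone genes Gcg, Sst, Ppy, Pyy and Ghrl had neither mark. Irx1 and Irx2, factors of alpha cells, and Hhex, a factor of delta cells, had H3K27Me3 only, with peaks of 2566 bp, 4646 bp and 1346 bp.

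Markers of cells outside the endocrine islet mostly carried no mark, where 42.1% of all promoters had neither. Their windows were poor in CpG. The median ratio of observed to expected CpG was 0.191 (macrophage), 0.228 (hepatocyte) and 0.243 (acinar), against 0.486 over all promoters. Hormone genes of islet cells, such as Gcg and Sst, had neither mark as well. A missing mark therefore does not show that a cell type is absent. None of 8 macrophage and leukocyte markers, 8 hepatocyte markers and 8 endothelial markers had H3K27Ac. Kdr, the VEGF receptor of endothelium, had H3K27Me3 (2301 bp, pileup 24.6). Of 12 acinar genes 11 had neither mark, and the digestive enzyme genes Cpa1, Cela1, Prss2 and Pnlip were among them. Bhlha15, a factor of secretory cells, had H3K27Ac (1646 bp). Of 8 duct markers 5, among them Krt19 and Cftr, had neither mark (62.5%, 30.6% to 86.3%). H3K27Ac only was found at 2 of the 8, and of these Krt7 had the narrower peak (1598 bp). Onecut1 had an H3K27Me3 peak of 4973 bp. Of 8 stromal markers Col1a2 and Thy1 had H3K27Me3 and 6 had neither.

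Families of housekeeping and stress functions had high shares of H3K27Ac only promoters, against 49.0% of all. All 18 genes of the unfolded protein response were in this class. Xbp1, the factor that drives this response, had the highest pileup of the 18 (72.9, width 1781 bp). Atf4 had the widest peak (4161 bp, pileup 61.5), and Herpud1, Eif2ak3 (the kinase PERK) and Hspa5 had pileups of 68.1, 64.6 and 57.9. The H3K27Ac only shares were 72 of 79 cytosolic ribosomal protein genes, 48 of 52 translation initiation factor genes, 42 of 49 proteasome genes and 40 of 44 genes of respiratory complex I and its assembly. None of these genes had H3K27Me3. The share was lower for zinc finger genes named Zfp, with 247 of 358, and for cytochrome oxidase genes, with 17 of 26 (65.4%, 46.2% to 80.6%). Of these 26 genes 1 had H3K27Me3 only and 8 had neither. Among the sets with higher shares named here, median CpG ratios ran from 0.598 (proteasome) to 0.699 (translation initiation factors). H3K27Ac only held 68.2% of all promoters with a ratio of 0.4 to 0.6 and 82.9% at 0.6 to 0.8.

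Of 9 genes of AMPK subunits and the kinases that activate it, 8 had H3K27Ac only, where 49.0% of all promoters did. Their median CpG ratio was 0.716, and 82.9% of all promoters with a ratio of 0.6 to 0.8 had H3K27Ac only. Prkaa1, a catalytic subunit, had a pileup of 56.8 over 1047 bp, and Prkaa2, the other one, 42.7 over 1096 bp. Prkag3, the subunit of skeletal muscle, had neither mark. Of 19 genes of lipid synthesis and oxidation 16 had H3K27Ac only, with broad peaks at Cpt1a (3456 bp), the entry of fatty acids into mitochondria, and Srebf1 (3257 bp), a master of lipid synthesis. Acacb, Ppargc1a and Scd1 had neither, and with every protein-coding transcript start Scd1 had H3K27Me3 only. Of 14 genes that place, read or remove H3K27 marks, 12 had H3K27Ac only, and the highest pileup of these was that of Ep300 (77.5), which encodes p300. Cbx7 and Kdm6b had neither, and with every protein-coding transcript start Cbx7 had H3K27Ac only. The median CpG ratio of these 14 genes was 0.822, and 90.6% of all promoters with a ratio of 0.8 or more had H3K27Ac only. 

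Immediate early genes, which respond to stimulation within minutes, had broad H3K27Ac. Of 14, 11 were H3K27Ac only, against 49.0% of all promoters. They were led by Junb (4935 bp, pileup 53.4), Ier2 (4364 bp, 45.2) and Fos (3928 bp, 66.5). Egr2 had H3K27Me3 only and Nr4a3 both. Among 10 D cyclins and CDK inhibitors, the cell cycle brakes, 8 were H3K27Ac only (80.0%, 49.0% to 94.3%). At a −log10 q of 5 or more 5 of the 10 were, and 8387 of all 20807 promoters. Ccnd2, the main D cyclin of beta cells, had 2769 bp with a pileup of 41.6. Cdkn2a, read at its annotated 5′ end, had 423 bp with a pileup of 31.3, close to the lowest pileup called (31). Cdkn1c had H3K27Me3 only and Cdkn1a neither. These 3 genes depended on the start used. With every protein-coding transcript start Cdkn2a and Cdkn1c had both marks and Cdkn1a had H3K27Ac only. 

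The 10 widest H3K27Ac peaks of this class, each named by the gene whose start lay nearest its midpoint, spanned 7595 bp to 30224 bp. The widest belonged to Pole3, a subunit of DNA polymerase epsilon, whose window also held another gene start, and the next to Rpl18 (15747 bp), which held the promoters of 3 genes. Syt7, a calcium sensor of insulin exocytosis, had 10659 bp. Mef2d, Stub1, Setd1b, Irf2bp2 and Riiad1 lay between 8445 bp and 9231 bp. Irs2, which relays the insulin signal and sustains beta cell mass, had 7595 bp and the highest pileup of the 10 (55.8). All 10 were H3K27Ac only in the RD and HFD-O304 lists as well.

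H3K27Me3 without H3K27Ac was frequent in several families of developmental regulators. Of 39 Hox genes 35 were in this class, against 5.89% of all promoters, and of 106 other homeobox genes 86. The class held 11 of 15 T-box genes, 11 of 18 Sox genes, 14 of 19 Wnt genes, all 4 Zic genes and 16 of 41 Forkhead genes. Of 23 transcription factors of lineages outside the islet, none had H3K27Ac only, 14 had H3K27Me3 only, 2 had both marks and 7 neither. Pax3 had the widest peak of that list (10356 bp, pileup 25.2). Twist1, Tal1 and Lhx2, factors of mesoderm, blood and forebrain, had 3135 bp, 3495 bp and 4025 bp and the highest pileups of the list, 28.6, 29.5 and 28.5.

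Some families were split between the marks. The 8 homeobox genes with H3K27Ac only were Isl1, Lhx1, Mnx1, Nkx2-2, Nkx6-1, Pax6, Six4 and Six5. Foxa2, Foxo1, Foxo3 and 10 more Forkhead genes had H3K27Ac only, whereas Foxa1, Foxc1 and Foxl2 had H3K27Me3, with peaks of 2352 bp, 9191 bp and 9270 bp. Sox4, Sox12 and Sox13 had H3K27Ac only, and Sox9, a factor of duct and progenitor cells, had H3K27Me3 only, over 4433 bp. Klf genes went the other way, with 13 of 16 H3K27Ac only, against 49.0% of all promoters. Wnt4 and Wnt5b were the only Wnt genes with H3K27Ac alone, while 6 of 10 genes of the Frizzled receptors of Wnt had it.

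The 4 Hox clusters showed the pattern as runs of separate peaks. Between the outermost gene starts of each cluster H3K27Ac had 0 peaks. H3K27Me3 had 23 peaks in Hoxa (chromosome 6, 52158317 to 52260880), which covered 48.6% of the interval, and 15 in Hoxd (chromosome 2, 74668310 to 74762980), which covered 45.1%. In Hoxc (chromosome 15, 102921103 to 103018934) 21 peaks covered 39.6%, and in the longer Hoxb (chromosome 11, 96194316 to 96365752) 23 peaks covered 28.2%. The widest peaks at gene starts were those of 7201 bp at Hoxa7, 6652 bp at Hoxb5 and 6323 bp over the starts of Hoxb7 and Hoxb8. Pileups of the promoter peaks stayed between 21.03 and 29.87 in the 4 clusters. Hoxb2, Hoxb3, Hoxc4 and Hoxd11 had neither mark within their windows.

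**Figure D2:**
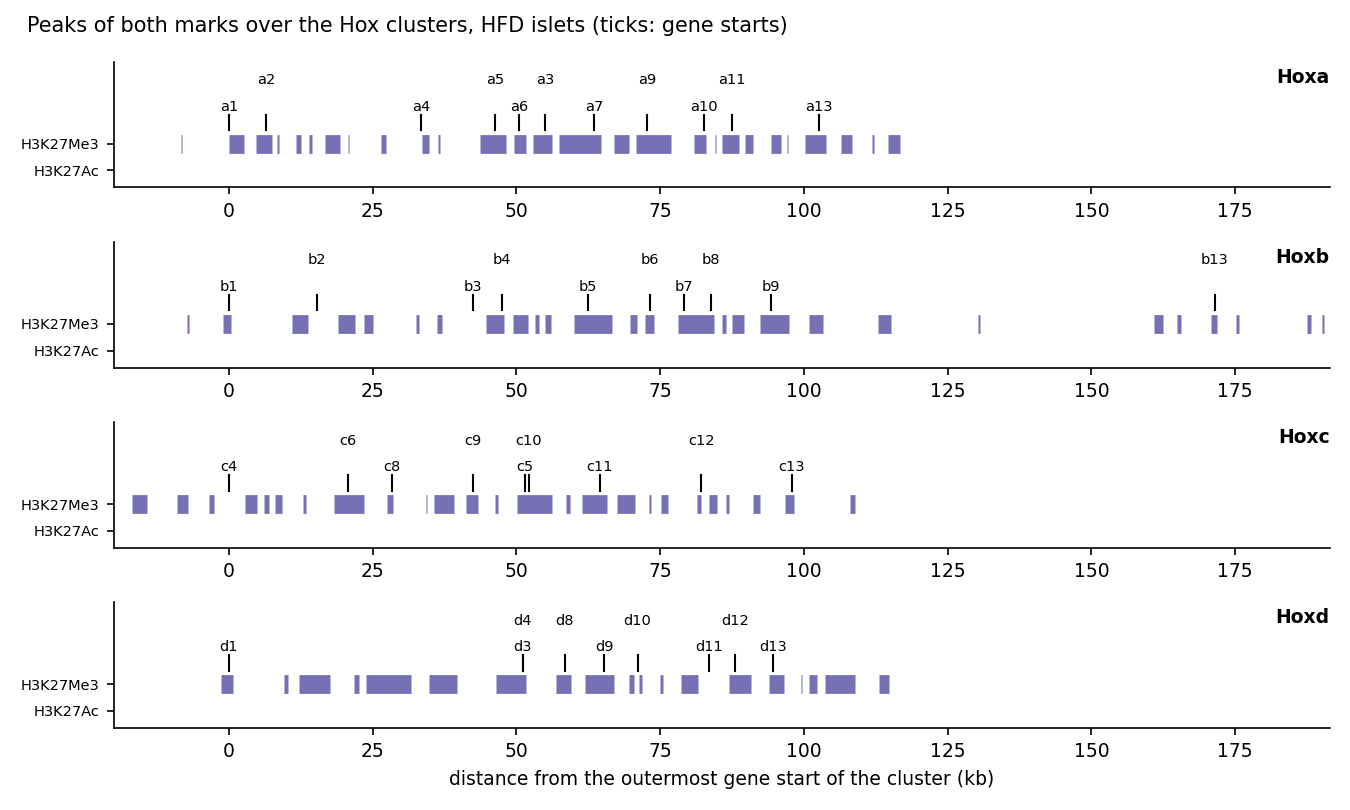
Peaks of H3K27Me3 (violet bars) and H3K27Ac (its row is empty) in HFD islets over the Hoxa, Hoxb, Hoxc and Hoxd clusters, with gene starts as ticks, on an axis of distance from the outermost gene start in kb. The marked stretches are many and narrow relative to the clusters, and 35 of 39 gene starts have H3K27Me3 within 1 kb.

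The 10 widest H3K27Me3 peaks of the class spanned 10323 bp to 18133 bp. The widest lay at Gata3, a factor of T cells and the inner ear, and was named by the neighbouring gene 4930412O13Rik, whose start is nearer its midpoint. It had a pileup of 24.3. Skor1, Dmrta2, Otx1, En1, Pax2, Dlx1, Pax3 and Nr2e1, regulators of brain, kidney and neural crest, followed with pileups of 23.9 to 26.9. Gm36079 (12428 bp) stood apart with a pileup of 49.3, the highest of the H3K27Me3 only class. All 10 were H3K27Me3 only in all 3 diets.

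Promoters with both marks were few in most families. Of 19 beta cell disallowed genes, which beta cells keep low although most tissues use them, 6 had both marks, 7 had H3K27Me3 only, 3 had H3K27Ac only and 3 had neither, where 2.98% of all promoters had both. Slc16a1, the lactate and pyruvate transporter MCT1, had an H3K27Ac peak of 997 bp (pileup 40.7) and an H3K27Me3 peak of 920 bp (pileup 20.8), which shared 797 bp. Rest had 1068 bp of H3K27Ac (35.4), all of it inside 1177 bp of H3K27Me3 (21.4). Acot7, Igfbp4, Ndrg2 and Yap1 were the others. Ldha, lactate dehydrogenase A, had H3K27Me3 only over 1589 bp (pileup 20.8), and Pdgfra had the widest H3K27Me3 peak of the list (6829 bp, 25.4). Cat, Smad3 and Tgm2 had H3K27Ac only. The signals were weak. At a −log10 q of 5 or more 0 of the 19 genes had both marks, 1 had H3K27Me3 only, 3 had H3K27Ac only and 15 had neither. At that limit 88 of the 620 promoters with both marks (14.2%) kept them. Of the 13 members of any list with both marks 1 did. That member was Nr4a3, with 2976 bp of H3K27Ac (50.1) and 3888 bp of H3K27Me3 (25.8), of which 377 bp were shared.

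Progenitor and dedifferentiation genes were mixed. Aldh1a3 had H3K27Ac over 870 bp (pileup 34.3) and H3K27Me3 over 772 bp (21.1), with 453 bp in common, and Mycl had both as well. Hes1, a target of Notch, had H3K27Ac only, Sox9 and Fev had H3K27Me3 only, and Neurog3, Pax4, Pou5f1, Nanog and Gast had neither. Glp1r, the receptor of the incretin GLP-1, had both marks in an unusual layout. Its H3K27Ac peak was 42340 bp wide (pileup 43.4) and the H3K27Me3 peak of 1306 bp (22) lay wholly within it, over the start.

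Ion channel families had more promoters with both marks than the 2.98% of all promoters. Potassium channel genes had 12 of 92 (13.0%). Genes with symbols that begin with Cacna, Cacnb or Cacng had 5 of 25 (20.0%), and Cacng4 was among the 5. Kcnc1 and Kcnc2, fast-closing channels of neurons, had H3K27Ac of 1321 bp (34.6) and 2071 bp (33.0) with H3K27Me3 of 3384 bp (27.5) and 930 bp (28.3). Kcnj11, which sets the membrane potential of beta cells, had H3K27Ac only. Cacna1g and Cacna1h, T-type channels, had both marks, with H3K27Me3 of 3636 bp (32.9) and 1789 bp (29.7). Histone genes had both marks at 12 of 67, and the H3K27Ac peak was the wider at all 12, as at Hist1h2ao (2514 bp against 1042 bp). Several of these genes lie in 1 peak, and their coding sequences are near-identical, so that reads may be shared between copies.

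The strongest promoters with both marks were of another kind. Promoters were ranked by the smaller of their 2 −log10 q values, among those with less than 50% repeats in both peaks. The 10 strongest were Gm10801, Sfi1, Duxf3, 4931408C20Rik, AW822073, Gm15319, Gm13279, Gm13285, Gm13287 and Gm13288. They are not separate loci. The last 4 lay in the same peak of each mark, and Duxf3 and AW822073 in the same H3K27Me3 peak. Repeats made up 49.1% of the H3K27Ac peak of Gm10801, 44.4% of the H3K27Me3 peak of Sfi1 and 43.4% of the H3K27Ac peak of Gm15319. Gm10801 had pileups of 19644 for H3K27Ac and 4247 for H3K27Me3. The Sfi1 peaks were 74504 bp and 21066 bp wide with pileups of 157.9 and 126.2. Those of Gm15319 spanned 124439 bp and 124501 bp with nearly the same ends. A fold of at least 10 over background in either list was found at 27 of the 620 promoters, and all 27 had both marks in all 3 diets. The other 593 had median widths of 712 bp and 1108 bp, and 158 of them had both marks in all 3 diets. Several of the named genes belong to groups of near-identical copies, and the part of multiply mapping reads was not tested.

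Within the class the 2 peaks usually coincided. They overlapped at 597 of 620 promoters (96.3%, 94.5% to 97.5%), with a median of 509 bp in common. The H3K27Ac peak lay wholly inside the H3K27Me3 peak at 288 promoters and the reverse was found at 89. The H3K27Me3 peak was the wider at 410 (66.1%). Both peaks covered the start at 243 promoters, H3K27Ac alone covered it at 108 and H3K27Me3 alone at 130.

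H3K27Ac was narrower and lower where H3K27Me3 was also present. The median width of the H3K27Ac peak was 1108 bp (95% interval from order statistics, 1093 to 1124) at promoters with H3K27Ac only and 743.5 bp (686 to 817) at promoters with both. The median pileup was 45.3 (45.1 to 45.5) against 35.8 (35.2 to 36.4), and the median −log10 q 8.73 against 3.93. H3K27Ac covered the start at 73.9% and 56.6% of these promoters. H3K27Me3 had closer medians in its 2 classes. The median width was 1229 bp (1152 to 1328) without H3K27Ac and 1161 bp (1061 to 1284) with it, and the median pileup 23.2 (22.9 to 23.3) and 23.6 (23.3 to 24.0). The intervals for H3K27Me3 overlapped for width, and for pileup their ends lay at 23.30 and 23.33. They treat promoters as independent, although neighbours may share a peak. Peaks of 2 kb or more made up 13.6% of the H3K27Ac only class and 30.4% of the H3K27Me3 only class. The H3K27Ac contrast depended on the strength of the peaks kept. Where peaks needed a −log10 q of 5 or more, the medians were 1186 bp and 47.4 at H3K27Ac only promoters and 3097 bp and 48.8 at the 88 with both marks, the opposite order. For H3K27Me3 they were 1894 bp and 26.7 at H3K27Me3 only promoters and 4006 bp and 36.0 at those with both marks, which turned the order of the widths as well.

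**Figure D3:**
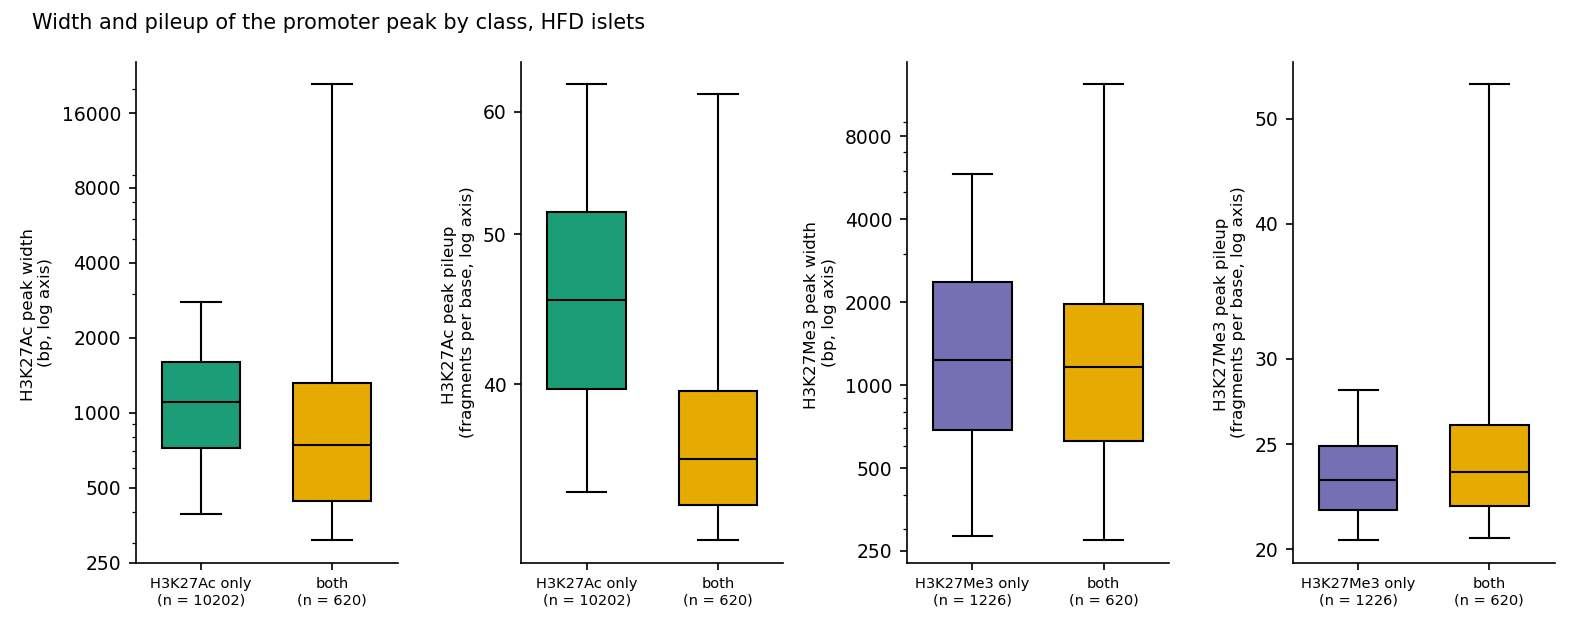
Width in bp and mean pileup in fragments per base (log axes) of the promoter peak of each mark in HFD islets, by class. Boxes are quartiles with the median, and whiskers reach the percentiles 5 and 95. The H3K27Ac peak is narrower and lower at the 620 promoters with both marks than at the 10202 with H3K27Ac only, while the H3K27Me3 boxes of both classes overlap.

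The peaks of each class lay mostly downstream of the start. The midpoint was downstream at 78.4% of H3K27Ac only and 77.3% of H3K27Me3 only promoters. At promoters with both marks the shares were 78.1% for H3K27Ac and 74.2% for H3K27Me3. A second protein-coding start within the window was found at 22.8% of H3K27Ac only promoters, 3.75% of H3K27Me3 only, 5.00% of those with both and 3.17% of those with neither.

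The classes also differed in sequence, which the sorting did not use. The ratio of observed to expected CpG in the window had a median of 0.644 at H3K27Ac only, 0.568 at H3K27Me3 only, 0.614 at both and 0.190 at neither. The GC contents were 54.5%, 55.9%, 57.6% and 45.4%. Of the 4826 windows with a CpG ratio below 0.2, 96.4% (95.8% to 96.9%) had neither mark. At 0.8 or more, 90.6% (89.1% to 91.8%) of 1768 had H3K27Ac only. H3K27Me3 only was most frequent between 0.4 and 0.6, at 10.3% (9.42% to 11.1%), and both marks between 0.6 and 0.8, at 4.99% (4.44% to 5.59%). Over lists and families the median ratio ranged from 0.822 in the 14 H3K27 and Polycomb genes to 0.0947 in 27 kallikrein genes, of which 25 had neither mark.

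**Figure D4:**
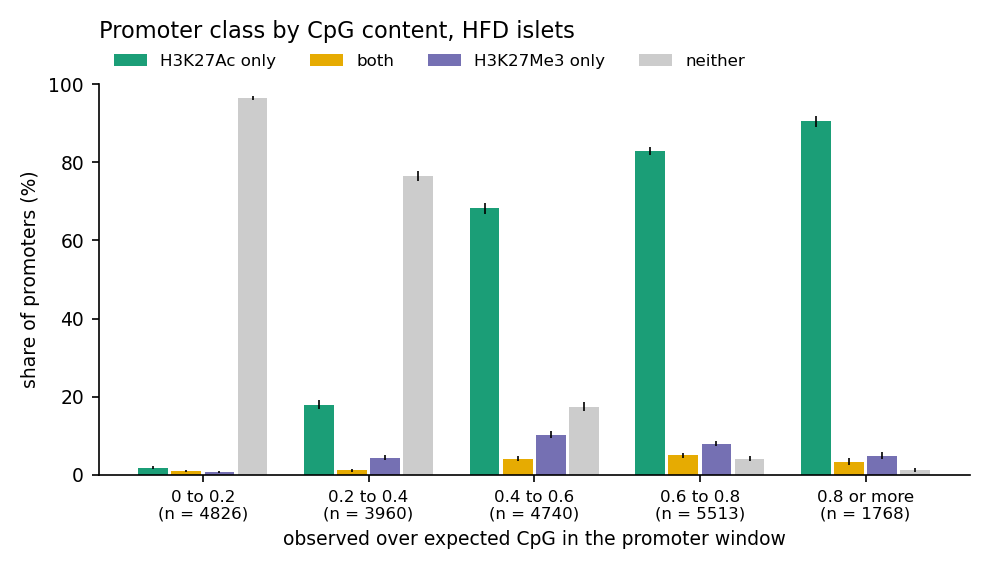
Share of promoters in each class (y axis, percent, with 95% Wilson intervals) by the observed over expected CpG ratio of the window (x axis, with the number of promoters) in HFD islets. Neither mark falls from 96.4% to 1.24% across the bins, H3K27Ac only climbs from 1.89% to 90.6%, and H3K27Me3 only peaks at 10.3% in the middle bin.

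The class with neither mark held large families used in other tissues. None of 35 taste receptor genes had a mark, and 1124 of 1127 olfactory receptor genes, 325 of 326 vomeronasal receptor genes and 41 of 42 beta-defensin genes had none, against 42.1% of all promoters. Olfr172, Olfr54 and Olfr641 were the olfactory receptor genes with H3K27Me3, over 228 bp, 250 bp and 1101 bp. Of 99 cytochrome P450 genes 80 had neither mark. Cyp26a1 and Cyp24a1, which degrade retinoic acid and vitamin D, were among the 5 with H3K27Me3 only (2595 bp and 3227 bp). Of 37 interleukin genes 33 had neither.

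The HFD classes were then read in the lists of the other 2 diets, which come from other animals. H3K27Ac only was found again at 8996 of its 10202 promoters (88.2%) in RD and at 9722 (95.3%) in HFD-O304. H3K27Me3 only was found again at 739 of 1226 (60.3%) and 951 (77.6%). Both marks were found again at 237 of 620 (38.2%) in RD and 336 (54.2%) in HFD-O304. In RD, 211 of the 620 had H3K27Me3 only, 82 had H3K27Ac only and 90 had neither. A direct exchange of the marks was rare. Of the H3K27Ac only promoters 24 had H3K27Me3 only in RD, and of the H3K27Me3 only promoters 10 had H3K27Ac only. Over all promoters, the RD lists gave 44.3% H3K27Ac only, 5.14% H3K27Me3 only, 1.83% both and 48.7% neither, with any H3K27Ac at 46.2% and any H3K27Me3 at 6.97%. The HFD-O304 lists gave 49.0% H3K27Ac only, 6.81% H3K27Me3 only, 2.49% both and 41.7% neither, with any H3K27Ac at 51.5% and any H3K27Me3 at 9.30%. The RD lists rested on 83773042 H3K27Ac fragments and 74870300 H3K27Me3 fragments. Those of HFD-O304 rested on 84694188 and 57324419. The part of depth in these counts was not tested.

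**Figure D5:**
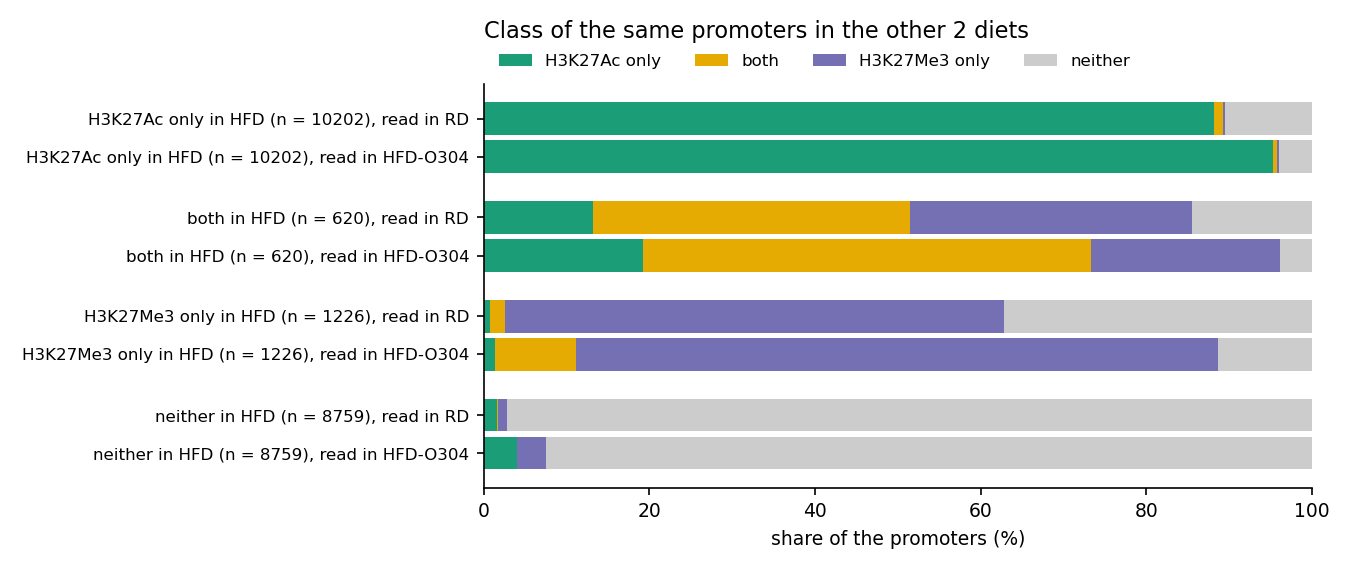
Class in RD and in HFD-O304 islets (colours, share in percent on the x axis) of the promoters sorted by their class in HFD islets (y axis). H3K27Ac only keeps 88.2% and 95.3% of its promoters, H3K27Me3 only 60.3% and 77.6%, and both marks 38.2% and 54.2%.

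Of all promoters 17686 (85.0%) kept their class in the 3 diets, and of the H3K27Ac only class 8858 (86.8%). The shares were lower for H3K27Me3 only (627, 51.1%) and for both marks (185, 29.8%). All 18 unfolded protein response genes and all 16 Klf genes kept their class in the 3 diets, and so did 34 of 39 Hox genes. Of the 19 disallowed genes, of which 7 had H3K27Me3 only and 6 both marks in HFD, 9 did. Slc16a1 and Ndrg2 had both marks in every diet. Rest and Yap1 had both marks in HFD and H3K27Ac only in RD and HFD-O304, and Igfbp4 had H3K27Me3 only in RD. Aldh1a3 had both marks in HFD and H3K27Me3 only in RD and HFD-O304. Of the beta cell factors, Neurod1 had H3K27Ac in HFD (2045 bp, pileup 37.4) and HFD-O304 and neither mark in RD, and Nkx6-1 had both marks in HFD-O304. The H3K27Ac peaks of Neurod1 and Aldh1a3 had −log10 q values of 4.71 and 3.32 in HFD, each below the median of its class (8.73 and 3.93).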

How the data were processed

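ChIP-seq of H3K27Ac and H3K27Me3 was performed by the authors on pooled islets, with 2 samples per mark and diet and 1 input per diet. Samples were grouped by the mark and diet in their titles. Paired-end reads of 50 nt were mapped by the authors to GRCm38 (Ensembl release 96) with bowtie2, the 2 replicates were merged, and broad peaks were called with MACS 2.1.2. Per the file headers the q-value cutoff was 0.01, the effective genome size 1.87e+09, 1 fragment was kept per position, and neither a control nor a local background was used. Input samples are not analysed here. The header of the HFD H3K27Ac list gives 95218072 kept of 115105420 fragments (17.3% duplicates), and that of H3K27Me3 54166902 of 120389054 (55.0%).

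For each peak the deposited files give the mean pileup (a coverage signal in fragments per base), −log10 p (not used here) and −log10 q values, and the fold enrichment, a ratio of pileup to the uniform background computed by the authors' peak caller. With 1 list per mark and diet no test was possible. The lowest fold called was 2.17 for H3K27Ac and 2.76 for H3K27Me3 in HFD.

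Promoters were 2001 bp windows around the 5′ end of each protein-coding gene of GENCODE mouse release 21. The peak with most bases in a window gave its width and pileup. CpG ratio, GC and repeat-masked bases were read from GRCm38. Python 3.11.15, pandas 2.3.3, numpy 2.4.6 and scipy 1.17.1 were used, and the class assignment was tested on simulated data. Shares have 95% Wilson intervals, which cover counting error only. Where 27 symbols occur more than once, the longer gene stands for the symbol in lists and families.

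Named were the members of 18 gene lists, the 10 widest peaks of the H3K27Ac only and H3K27Me3 only classes, the 10 promoters with both marks whose smaller −log10 q was highest among those with less than 50% repeats in both peaks, and, of 41 families, up to 4 examples by width. Homeobox, Forkhead, Sox, Wnt, channel, histone and cytochrome P450 genes named beyond that were chosen after their values were seen. Some genes that the rule names are not reported here. The classes, lists and families were chosen with earlier results of these data known. Alternatives were a −log10 q of at least 5, an overlap of 200 bp, windows of 500 bp and 2000 bp either side, every protein-coding transcript start in place of the gene 5′ end, lists of equal size, a common fold cutoff, removal of repeat-rich peaks, and the addition of chromosomes X and Y.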

Additional observations from a re-analysis of the deposited data

Results flagged for a closer look

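Peaks outside chromosomes 1 to 19 were not used in the comparisons above. In HFD islets 363 H3K27Ac peaks lay on chromosome X and 263 in the RD list. The whole H3K27Ac list was also larger in HFD, with 21674 peaks against 16314 in RD. Sequences other than the numbered chromosomes, X and Y held 328 H3K27Me3 peaks and 239 H3K27Ac peaks, against 323 and 157 in RD. These differences were not tested. H3K27Me3 had 724 peaks on chromosome X and 771 in RD, from whole lists of 15438 and 15517. Of the 948 protein-coding promoters of chromosome X, 117 (12.3%, 10.4% to 14.6%) had H3K27Ac only, 8 had H3K27Me3 only, 2 had both marks and 821 (86.6%) had neither. These promoters gave a smaller H3K27Ac only share than the 49.0% of chromosomes 1 to 19. The mice were male and carry 1 X chromosome, and the part of copy number in this share was not tested.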

How the results depend on the processing

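The 4 class counts and 8 medians were recomputed under 10 alternatives, which gave 109 values, and 86 of them stayed within 1.5 times (counts) or within the main interval (medians). No paired analysis was possible because each list merges its replicates, and leaving a replicate out was likewise not possible.

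A −log10 q of at least 5 left 393 promoters with H3K27Me3 only and 88 with both marks. Its H3K27Ac medians were 1186 bp and 47.4 (H3K27Ac only) and 3097 bp and 48.8 (both), and its H3K27Me3 medians 1894 bp and 26.7 (H3K27Me3 only) and 4006 bp and 36.0 (both). At a common fold cutoff of 2.76, 152 promoters had both marks, with H3K27Ac medians of 1209 bp and 48.3 (H3K27Ac only) and 2034.5 bp and 45.5 (both) and an H3K27Me3 pileup of 25.9 (both). With lists of equal size 339 had both marks, with H3K27Ac medians of 1149 bp and 46.2 and of 911 bp and 39.0, and an H3K27Me3 width of 1039 bp (both). A window of 2000 bp gave an H3K27Me3 width of 1142 bp (H3K27Me3 only). These 3 settings other than the window remove peaks by construction. The order of the H3K27Ac widths between the classes was turned by the q limit and the fold cutoff, and that of the pileups by the q limit. The order of the H3K27Me3 widths was turned by the q limit. Neither mark became the largest class under all 3, with 11939 promoters against 8387 with H3K27Ac only (q limit), 11316 against 7645 (fold cutoff) and 9568 against 9393 (equal size). Removing repeat-rich peaks left 597 promoters with both marks.

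Of 232 list members, 51 changed class at a −log10 q of at least 5 (47 to neither), 14 with every protein-coding transcript start and 10 with a window of 2000 bp. H3K27Me3 rested on fewer fragments than H3K27Ac, and its absence at a promoter means that it was not detectable at this depth.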
